A study of Zea mays with 4 samples.

Results

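Laccases and class III peroxidases are the enzymes that polymerize lignin, and 6 maize genes for them were followed here: 1 laccase gene, LAC1 (LOC606456), and 5 class III peroxidase genes, PER42, PER66, PRX1 (LOC542029, also pox1), PRX2 (LOC542571, also pox2) and Px11 (LOC542464). They were chosen by name, as the probe sets whose single annotated gene is 1 of these, whether or not a signal was found. Each gene has 1 such probe set, so 6 probe sets were read out of 17621 other than controls. They do not stand for all laccases and class III peroxidases of maize, which form large families. RNA was hybridised to 4 Affymetrix Maize Genome arrays, on which several short oligonucleotides together make the probe set of a transcript. There were 2 arrays of the line F98902, labelled as having bad digestibility, and 2 of the line Cm484, labelled as having good digestibility. Plants of both lines were untreated and grew in a greenhouse at 20 °C during the night and 22 °C during the 14 h of light, and were taken at flowering, 24 h before ovulation. The labels name stem in the growth protocol and root in the extraction protocol. With 1 line of each kind, digestibility and every other difference between the lines cannot be told apart. The labels number the samples of a line without naming separate plants, so the spread between samples may be technical. The p-values of the fit used below rest on that spread, of the probe set itself and of the other probe sets tested. All of it comes from these 2 samples per line.

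Lignin is made in the cell wall from monolignols, alcohols that the cell synthesises from phenylalanine and releases into the wall. There, laccases, which are copper enzymes that use oxygen, and class III peroxidases, which are haem enzymes that use hydrogen peroxide, oxidise monolignols to radicals that couple into the polymer. In Arabidopsis, plants that lack several laccases deposit little lignin. Class III peroxidases also act on other phenolic compounds and can cross-link wall polymers, so a peroxidase name alone does not assign a gene to lignin. In grasses, lignin and the ferulate cross-links of the wall are known to limit how well the stem is digested.

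Of the 6 genes, PER42 and LAC1 gave a signal in both lines, and PER42 was called as different between them. It was 1.94-fold higher in F98902 than in Cm484 (95% interval 1.47 to 2.55), while LAC1 differed by less than the distance between its Cm484 replicates. The other 4 genes, PER66, PRX1, PRX2 and Px11, lay below the detection value on all 4 arrays, so nothing can be said of how the lines compare for them. Values are the authors' log2 values, and 5 on that scale served as the detection value. A probe set entered the test if it reached 5 on at least 2 arrays. "Called" means an adjusted p under 0.05 from limma fitted to the 10131 probe sets that entered. Against that threshold 34.9% of all probe sets tested were called, 17.7% as higher in F98902 and 17.1% as higher in Cm484. Among the laccase and peroxidase genes 1 of the 2 tested was called, and with 2 genes that share says nothing particular about the family.

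**Figure D1:**
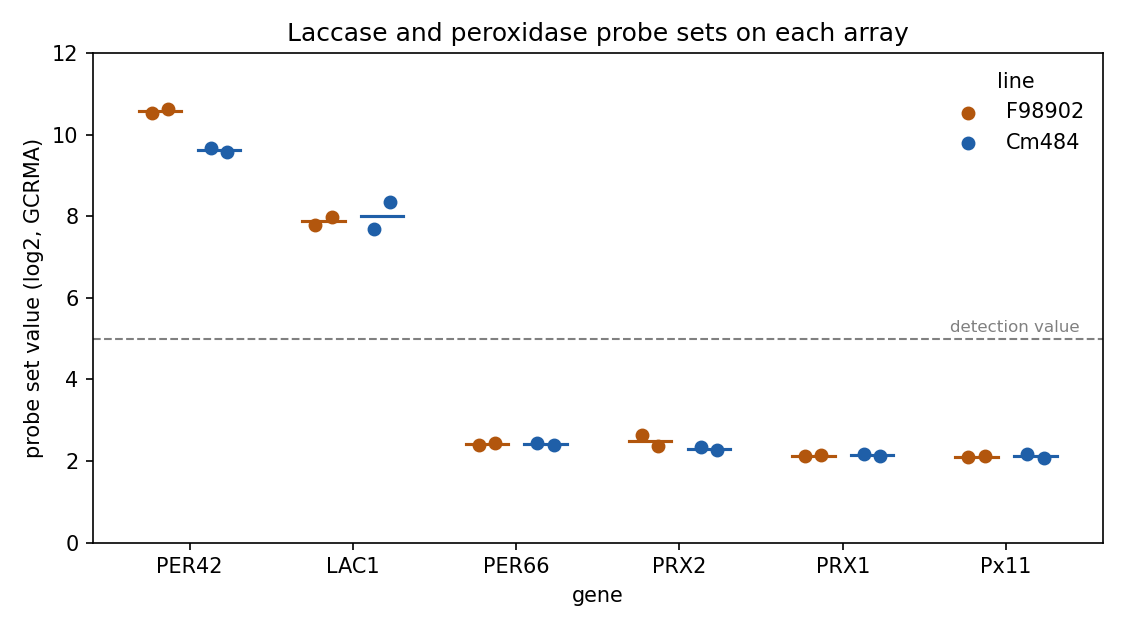
Value of each laccase and peroxidase probe set (log2) on the 2 F98902 arrays and the 2 Cm484 arrays, as points, with the mean of each line as a bar and the detection value of 5 as a dashed line. PER42 shows separate lines, LAC1 shows overlapping ones, and the other 4 genes sit between 2.08 and 2.63 in both lines. Heights are to be compared within a gene, since probe sets differ in how strongly they bind. Whether a probe set binds equally in both lines was not tested.

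PER42, also listed as PRX42 and POX3-1, encodes a class III peroxidase. Its other listed name, pmPOX3-1, belongs to a set of names for maize peroxidases of the plasma membrane. It read 10.53 and 10.64 (log2) on F98902 replicates 1 and 2, against 9.68 and 9.58 on Cm484 replicates 1 and 2. The values of the lines did not overlap: the lower F98902 array lay 0.85 above the higher Cm484 array. Groups that do not overlap were common, at 72.0% of all probe sets tested. Its mean was 10.58 ± 0.079 in F98902 and 9.63 ± 0.069 in Cm484 (SD, n = 2 each). The difference was 0.96 ± 0.16 (log2, F98902 minus Cm484, SE), with a 95% interval of 0.56 to 1.35 and a limma adjusted p of 0.00842.

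The 2 arrays of a line lay close together for PER42, 0.11 apart in F98902 and 0.098 apart in Cm484. The median distance between replicates over all probe sets tested was 0.21 in F98902 and 0.19 in Cm484. The difference between the lines was 8.57 times the larger of the PER42 replicate distances. In size it was not unusual for this pair of lines, since 25.3% of the probe sets tested differed by more in either direction. In RNA from whole tissue, more cells that transcribe PER42 and more PER42 RNA per cell cannot be told apart. PER42 also rests on 1 probe set. Whether the oligonucleotides of that probe set bind the transcripts of both lines equally was not tested.

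LAC1 encodes a laccase, and it is the single laccase among the 6 genes. It read 7.78 and 7.97 (log2) on F98902 replicates 1 and 2, against 7.69 and 8.34 on Cm484 replicates 1 and 2. Both F98902 values fell between the 2 Cm484 values. Its mean was 7.88 ± 0.13 in F98902 and 8.01 ± 0.46 in Cm484 (SD, n = 2 each). The difference was -0.14 ± 0.26 (log2, F98902 minus Cm484, SE; limma adjusted p = 0.725). The 95% interval ran from -0.79 to 0.51, that is from 0.580-fold to 1.43-fold of the Cm484 level, so differences of up to these sizes are not excluded.

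The Cm484 arrays were 0.65 apart for LAC1. Of all probe sets tested, 8.24% had a larger distance between the Cm484 replicates. In F98902 the LAC1 arrays were 0.19 apart, and 53.2% of probe sets had a larger distance. Without Cm484 replicate 1 the LAC1 difference was -0.46 (adjusted p = 0.217), and without Cm484 replicate 2 it was 0.19 (adjusted p = 0.583), so the sign rested on which Cm484 array was used.

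**Figure D2:**
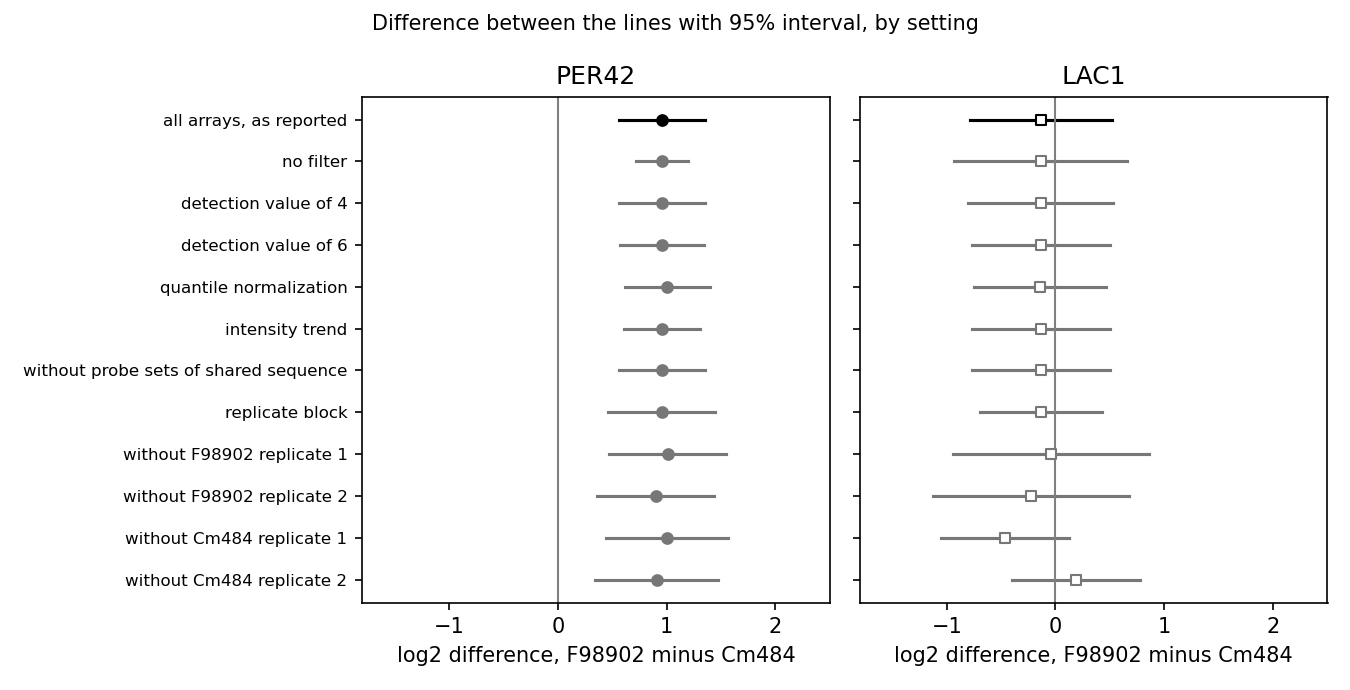
Difference between F98902 and Cm484 (log2) for PER42 and LAC1 with its 95% interval, from all arrays and under each of 11 other settings. Filled circles are called and open squares are not. The PER42 difference stayed between 0.90 and 1.01 and was called in every setting shown, whereas the LAC1 difference ran from -0.46 to 0.19 and was called in none of them.

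That PER42 passed the threshold and LAC1 did not is no test of whether they differ from each other in their response to the line. Taken within each array, PER42 minus LAC1 was 2.75 and 2.67 (log2) in F98902 replicates 1 and 2, against 1.99 and 1.24 in Cm484 replicates 1 and 2. This gap between the genes was wider on both F98902 arrays than on either Cm484 array, by 1.09 on average. An exact two-sided permutation test over the 4 arrays gave p = 0.333, the smallest that 2 arrays against 2 allow. With so few arrays this test could not pass the threshold.

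The difference of PER42 stands within a wide divergence of the lines. The differences over all probe sets tested centred on -0.016 (log2, median), and their median absolute size was 0.44.

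**Figure D3:**
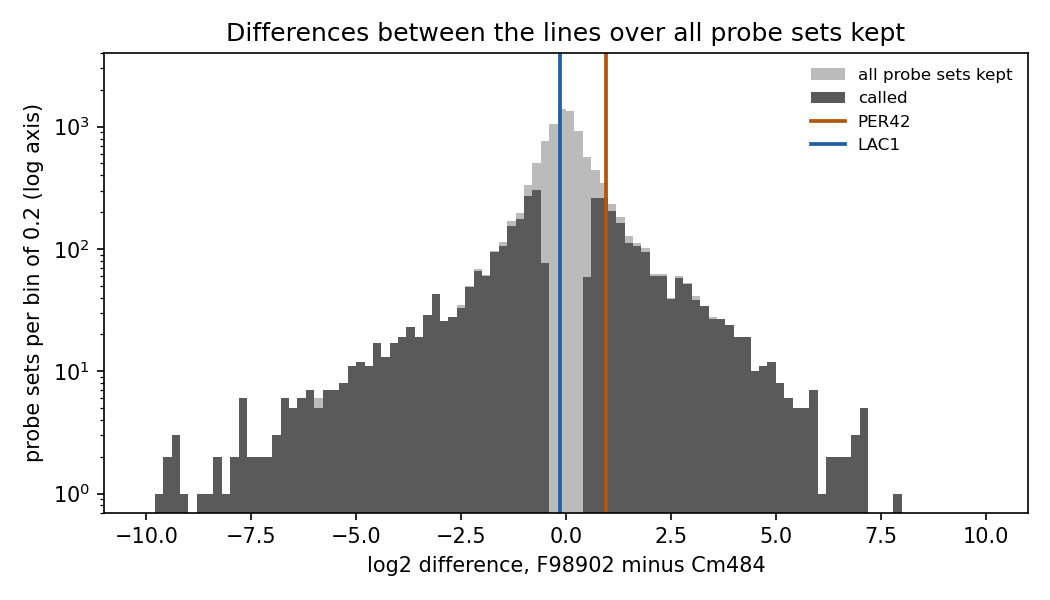
Histogram of the difference between F98902 and Cm484 (log2) over the 10131 probe sets tested, on a log count axis, with called probe sets in dark grey. The line for PER42 lies at 0.96, within the called flank on the F98902 side, and the line for LAC1 at -0.14 lies near the centre.

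The remaining 4 peroxidase genes gave no usable signal. PER66, also listed as POX3-2 and pmPOX3-2, read 2.39 and 2.44 (log2) in F98902, against 2.45 and 2.40 in Cm484. PRX1, also listed as pmPOX1, read 2.12 and 2.14 in F98902, against 2.16 and 2.11 in Cm484. Px11 read 2.09 and 2.12 in F98902, against 2.16 and 2.08 in Cm484. These 3 genes spanned at most 0.077 across the 4 arrays.

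PRX2, also listed as pmPOX2, read 2.63 and 2.37 (log2) in F98902, against 2.34 and 2.26 in Cm484. The value of 2.63 on F98902 replicate 1 was the highest value of these 4 genes. It still lay 2.37 below the detection value, and values that low have no order, so no difference is given. The probe sets below detection on all 4 arrays had a median of 2.22 and 2.26 on F98902 replicates 1 and 2, and of 2.27 and 2.22 on Cm484 replicates 1 and 2. With no filter these 4 genes could be fitted too, and limma called 0 of them (adjusted p of 0.399 or more, unadjusted p from 0.179 to 0.904). Over all 17621 probe sets that fit called 3093. Values at the background level hold no comparison of the lines, so this fit cannot decide whether the 4 genes differ.

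Being below detection was frequent and is not a statement that a gene was silent. Of all probe sets other than controls, 40.5% were below detection on all 4 arrays, and of the 1452 with 1 annotated gene, 36.9%. Each of PER66, PRX1, PRX2 and Px11 rests on 1 probe set. Among 140 genes with several annotated probe sets of which at least 1 was detected on all arrays, 70 (50%) had another one below detection on all arrays. The catalase gene cat1 (LOC542369) is an example: 1 probe set read 10.93 and 11.00 in F98902, against 10.50 and 10.64 in Cm484, and its other 2 probe sets were below detection on all 4 arrays. A transcript of these 4 genes that their probe sets missed was not tested for.

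The tissue named by the labels was compared with marker genes. All 4 probe sets of secondary wall markers (cesa10, cesa11, cesa12 and bk2, which act in making cellulose of thickened walls) were detected on all 4 arrays. None of these 4 was called, against 34.9% of all probe sets tested. The differences (log2, F98902 minus Cm484) were -0.79 for cesa11 (limma adjusted p = 0.061) and -0.54 for cesa12 (limma adjusted p = 0.107). They were -0.17 for cesa10 and 0.040 for bk2. The summed level of these 4 on a linear scale was 9695 to 10192 on the F98902 arrays, against 11492 to 15436 on the Cm484 arrays. Of 13 probe sets of green tissue markers, for 6 genes, 11 were detected on all 4 arrays. Of these 11, 8 were called as higher in F98902, 1 as higher in Cm484 and 2 not. Over all probe sets tested, 17.7% were called as higher in F98902. Several of the 8 are of the same gene, so they are not independent. The summed linear level of the green list was 28926 to 29522 on the F98902 arrays, against 12413 to 14630 on the Cm484 arrays. A probe set of PPDK (LOC542759), an enzyme of carbon fixation in maize leaves, read 11.87 and 12.10 (log2) in F98902, against 8.24 and 8.53 in Cm484. Further PPDK probe sets, which differed by 3.91 and 3.22 (log2, F98902 minus Cm484), were called as higher in F98902, as was this one. Another PPDK probe set read 8.30 and 8.43 in F98902, against 8.41 and 8.30 in Cm484, and was not called. psad1 (LOC541791), of photosystem I, read 8.01 and 7.89 in F98902, against 5.49 and 5.81 in Cm484. The probe set called as higher in Cm484 was that of Lhcb5-1 (LOC542716), a light-harvesting gene. It read 10.88 and 11.01 in F98902, against 11.71 and 12.06 in Cm484. Of the root markers only zrp4 (LOC542706) had an annotated probe set. It was below detection at 2.34 and 2.07 in F98902, against 8.83 and 8.59 in Cm484. Of 14 probe sets for zein storage proteins of the seed, 13 were below detection on all 4 arrays. The part of tissue makeup in the PER42 difference was not tested. Detected probe sets made up 54.8% to 55.2% of each array. Control probe sets for housekeeping transcripts of maize were set against their mean on the other 3 arrays. On F98902 replicate 2 the median of the 5 detected ones for 5′ ends was -0.83 (log2), and that of the 5 for 3′ ends was 0.0040. On F98902 replicate 1 these medians were 0.86 for 5′ ends and 0.12 for 3′ ends. The labels also give the least RNA for F98902 replicate 2, 120.7 ng, against 312.4 ng to 416.8 ng for the other samples. Without F98902 replicate 2 the PER42 difference was 0.90, and the part of RNA quality or amount in the PER42 difference was not tested.

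Class III peroxidases need hydrogen peroxide, and 11 probe sets matched a list of gene names for its supply and removal (catalases, superoxide dismutases, ascorbate peroxidases and NADPH oxidases). Of these, 7 were detected and tested and 4 were below detection on all arrays. limma called 0 of the 7 in either direction, against 34.9% of all probe sets tested. At an unadjusted p under 0.05 there were 2, against 45.6% of all probe sets tested. Their median difference was -0.34 (log2, F98902 minus Cm484), with 4 negative and 3 positive, beside a median of -0.016 over all probe sets tested. Without F98902 replicate 1 or without Cm484 replicate 2 the count called was 1, higher in Cm484 both times.

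The smallest p-values in this group belonged to sod2 (LOC542260) and Sod4A, genes of superoxide dismutases, which turn superoxide into hydrogen peroxide. sod2 read 9.79 and 8.90 (log2) in F98902, against 10.28 and 10.13 in Cm484. Its F98902 arrays were far apart, and the difference was -0.86 ± 0.32 (SE; adjusted p = 0.0912), with -1.31 (adjusted p = 0.0162) without F98902 replicate 1 and -0.42 (adjusted p = 0.22) without F98902 replicate 2. Sod4A read 11.41 and 11.36 in F98902, against 12.26 and 11.72 in Cm484. Here the Cm484 arrays were apart, and the difference was -0.61 ± 0.23 (SE; adjusted p = 0.0938), with -0.88 (adjusted p = 0.0449) without Cm484 replicate 2 and -0.34 (adjusted p = 0.317) without Cm484 replicate 1.

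The other 5 genes tested in this group were cat1 and CAT3 (LOC542370), whose catalases break down hydrogen peroxide, sod3, apx and rbohB. CAT3 differed by 0.36, or by 0.16 without Cm484 replicate 1 and 0.57 without Cm484 replicate 2. cat1 differed by 0.39 (95% interval -0.0047 to 0.79) and sod3 (LOC542764), for a manganese superoxide dismutase, by 0.29. apx (LOC542476), for an ascorbate peroxidase, which is an intracellular enzyme of another peroxidase class, differed by -0.34. Its value rested on 1 array, with -0.0011 without F98902 replicate 2 and -0.68 without F98902 replicate 1. rbohB (LOC100037794), for an NADPH oxidase that releases superoxide at the plasma membrane, differed by -0.37, or by -0.19 without F98902 replicate 2. None of these 5 was called, with adjusted p-values from 0.113 to 0.359. Of the 7 probe sets tested, 4 had their lowest value on F98902 replicate 2, the array with low 5′ controls and the least RNA. These were the 4 with a negative difference, for which a lowest value on an F98902 array is likely. The share over all probe sets tested was not computed, so the count is a description only. The part of RNA quality or amount in these values was not tested.

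**Figure D4:**
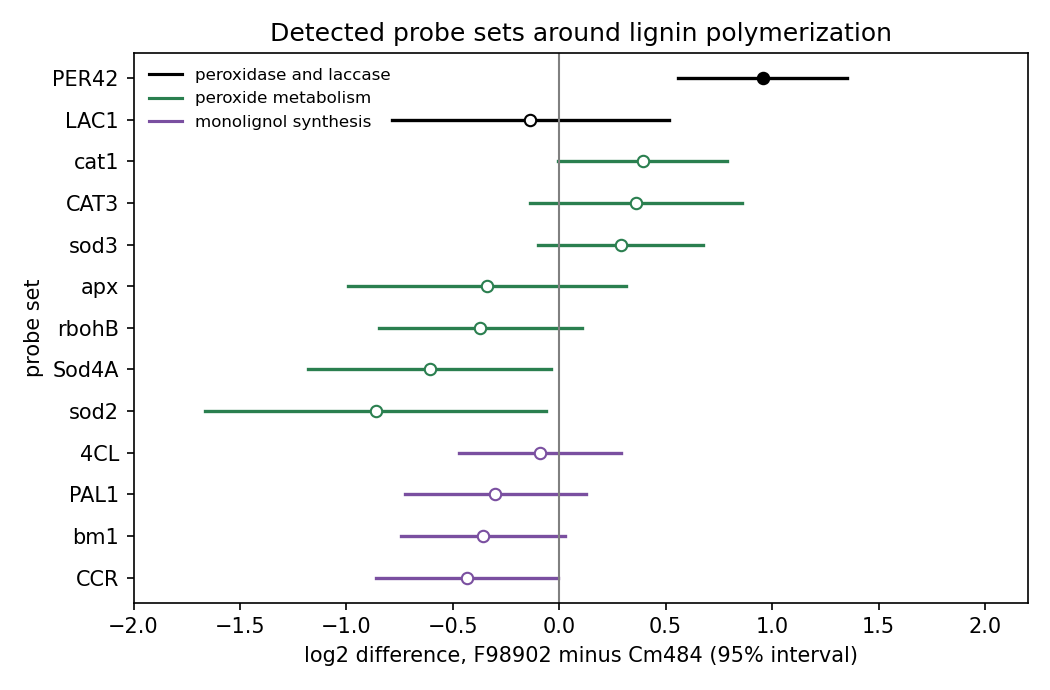
Difference between F98902 and Cm484 (log2, 95% interval) for the detected probe sets of the peroxidase and laccase genes, of 7 genes of peroxide metabolism and of 4 genes of monolignol synthesis. PER42, the filled point at 0.96, is called, and the open points, from -0.86 for sod2 to 0.39 for cat1, are not.

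Monolignols are the substrate that laccases and peroxidases oxidise, and 7 probe sets matched the names of this pathway. Of these, 4 were tested and 3, for ccr2, CADR1 and HCTR, were below detection on all arrays. HCTR is a name for a toxin reductase and matched by its letters alone. CADR1 is also listed as lec1, which is not a name of this pathway, so it too may have matched by letters alone. limma called 0 of the 4 in either direction, against 34.9% of all probe sets tested, and 1 was at an unadjusted p under 0.05, against 45.6%. All 4 differences were negative, with a median of -0.33 (log2, F98902 minus Cm484), beside a median of -0.016 over all probe sets tested. PAL1 (LOC542258) differed by -0.30 (limma adjusted p = 0.225) and 4CL (LOC542166) by -0.091 (limma adjusted p = 0.683). The cinnamoyl-CoA reductase gene CCR (LOC542463) read 12.05 and 11.84 in F98902, against 12.30 and 12.45 in Cm484 (95% interval of the difference -0.86 to -0.0052; adjusted p = 0.107). The cinnamyl alcohol dehydrogenase gene bm1 (LOC542663, also CAD2) read 12.49 and 12.42 in F98902, against 12.85 and 12.78 in Cm484 (95% interval -0.74 to 0.027; adjusted p = 0.13). All 4 probe sets had their lowest value on F98902 replicate 2. Their lines did not overlap and F98902 was lower, so that value had to lie on an F98902 array. The share over all probe sets tested was not computed, so the count is a description only. The part of RNA quality or amount in these values was not tested.

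The genes whose 4 values ran most like those of PER42 and LAC1 were looked up among 888 other detected probe sets with 1 annotated gene, for 746 genes. Likeness was the Euclidean distance between the 4 values after each probe set was centred on its own mean, and 4 arrays make it a description only. Closest to PER42 were rpl29 (LOC541790), named for a ribosomal protein, at a distance of 0.065, hat1 (LOC542083), named for a histone acetyltransferase, at 0.080, and ltk1 (LOC541658), a receptor-like kinase name, at 0.129. For rpl29 the values were 9.75 and 9.91 in F98902, against 8.90 and 8.88 in Cm484. Closest to LAC1 were RR8 (LOC541636), a cytokinin response regulator, at 0.126, m4 (LOC542041) at 0.151 and GST39 (LOC541848), a glutathione S-transferase, at 0.178. RR8 read 7.31 and 7.34 in F98902, against 7.19 and 7.75 in Cm484, and as for LAC1 its Cm484 arrays enclosed both F98902 arrays.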

How the data were processed

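Transcript levels of 2 maize lines were measured on 4 arrays, 2 per line. Per the submitters' processing notes, the authors made the deposited log2 values with GCRMA, which corrects background by probe sequence, normalizes arrays by quantiles and summarises probe sets, in R 2.6.2. The sources used here name no further step and no genome build, so coordinates are left out. The number of arrays limits the precision.

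The platform's annotation paired probe sets with genes, and other names were read from RefSeq's gene table (Zm-B73-REFERENCE-NAM-5.0), in which all 6 genes were found. Control probe sets (113 of 17734) were left out. Probe sets at or above 5 on at least 2 arrays were fitted without covariates by limma 3.58.1 (R 4.3.3; lmFit, then eBayes; F98902 minus Cm484), two-sided, with Benjamini-Hochberg adjustment over all 10131. Adjusted p-values, SEs and intervals are from that fit, in which eBayes draws the variance of each probe set toward that of all probe sets tested. List names were matched ignoring letter case. The members, gene lists and the detection value were chosen with earlier results of these data known. Every member is named. From the lists, called genes are named, or, with none called, the 2 of smallest p; other genes were named after their values were seen. For likeness, the 3 closest genes are named. Alternatives changed the filter, the normalization, the variance prior, probe sets of shared sequence, a replicate block and single arrays.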

Additional observations from a re-analysis of the deposited data

How the results depend on the processing

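The 2 arrays per line, and the signal over background of each probe set, limit what could be shown. PER42 was called, and 1 member was called, under all 11 alternatives, with a PER42 difference of 0.90 to 1.01 and an adjusted p of 0.0287 to 0.0442 with an array left out and of 0.00454 to 0.0241 otherwise. LAC1 was called under none of them (adjusted p from 0.217 to 0.999); its difference ran from -0.46 to 0.19 with an array left out, and the sign turned to 0.19 without Cm484 replicate 2. Monolignol genes called stayed at 0 throughout. The count for peroxide metabolism was 0 to 1 with an array left out and 0 otherwise. Probe sets called numbered 3533, and 2205 to 2706 with an array left out: 2205 without Cm484 replicate 1 and 2339 without F98902 replicate 2 were the counts that moved by over 1.5 times. The fewer arrays of these fits are part of their construction. With the replicate number as a block, 2983 probe sets were called and PER42 had an adjusted p of 0.0241; deviations of same-numbered samples correlated at r = -0.024 over the probe sets tested, so the numbers are not taken to pair the samples.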
